A study of Homo sapiens with 6 samples.

Results

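The genes described here encode intermediate filament proteins: the keratins KRT8, KRT18, KRT19, KRT15 and KRT14, vimentin (VIM), nestin (NES) and the nuclear lamins LMNA and LMNB1. They were measured in TC32, a human Ewing sarcoma cell line, 48 h after transfection of an siRNA against EWSR1 (siEWSR1), an siRNA against FLI1 (siFLI1) or a control siRNA (siNeg), with 2 RNA-seq libraries per group and 6 in all. Most Ewing sarcomas carry a fusion that joins part of EWSR1 to part of FLI1, and either siRNA was meant to lower it. The 9 genes, of 26931 gene symbols in the deposited tables, were chosen by name with their FPKM across siEWSR1, siFLI1 and siNeg known, so they count as selected on these measured values: their differences between groups are given as a description and carry no p-value. Values are gene-level FPKM, fragments scaled to transcript length and to library size, so levels can be compared between genes.

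Keratins are the intermediate filaments of epithelial cells, and each filament pairs a type I keratin (here KRT18, KRT19, KRT15 and KRT14) with a type II keratin (here KRT8). Vimentin is the main filament protein of mesenchymal cells, nestin co-assembles with it in neural and muscle progenitors, and lamins line the inner nuclear membrane. Ewing sarcoma is a small round cell tumour of bone and soft tissue that is rich in vimentin, and a minority of such tumours stain for keratins.

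The 6 libraries held 12079 to 12741 symbols at 1 FPKM or more each. Fragment counts were not used here, so the depth behind each value is unknown. EWSR1 stood at 34.6 and 32.3 FPKM in the siEWSR1 libraries, against 46.5 and 47.2 FPKM in the siNeg libraries. FLI1 stood at 8.98 and 8.56 FPKM in the siFLI1 libraries, against 10.9 FPKM in both siNeg libraries. With the other siRNA of the 2, FLI1 stood at 10.4 and 10.6 FPKM (siEWSR1) and EWSR1 at 51.2 and 50.2 FPKM (siFLI1), so neither was clearly lower. These sums hold normal and fusion transcripts together, and the fusion transcript itself was not measured. All 7 Ewing sarcoma markers examined (CD99, NKX2-2, NR0B1, STEAP1, BCL11B, PAPPA and CCK) had a mean of at least 1 FPKM in each group. Their summed level was 346 to 424 FPKM in the siEWSR1 libraries and 383 to 417 in the siFLI1 libraries, against 659 to 688 in the siNeg libraries. The labels do not say whether replicates were separate cultures, so errors and p-values measure the spread between these libraries, which may be technical. In bulk RNA, a change in the number of cells that make a transcript and a change in transcript per cell cannot be told apart.

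The panels of FPKM by library show that the 9 genes did not move as 1 group. KRT15 was far higher with either siRNA than with siNeg, LMNB1 was lower, KRT18, KRT14 and NES were modestly higher, and KRT8, VIM and LMNA lay close to their siNeg values. The highest member in each group was VIM, which ranked 73rd among all symbols by mean FPKM with siEWSR1, 68th with siFLI1 and 67th with siNeg. By mean FPKM, KRT15 ranked 5th of the 9 with siEWSR1, 4th with siFLI1 and 8th with siNeg.

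**Figure D1:**
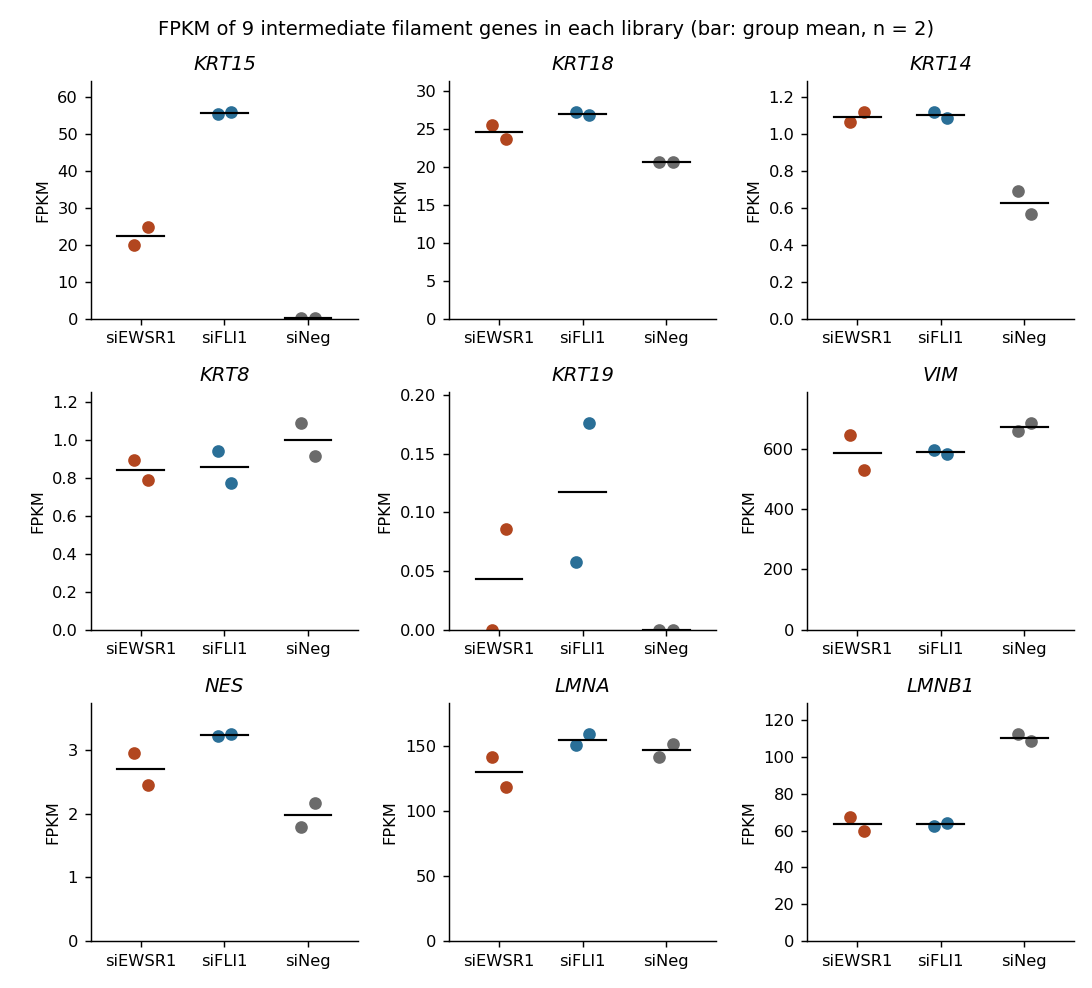
FPKM of the 9 genes (y axes, linear, each starting at 0) in the siEWSR1, siFLI1 and siNeg libraries (x axis). Points are libraries and bars are group means. KRT15 reached 20.0 to 56.1 FPKM with the siRNAs against EWSR1 or FLI1 and at most 0.193 FPKM with siNeg, while LMNB1 stood at 60.0 to 67.3 FPKM with siEWSR1 or siFLI1 and 109 to 112 FPKM with siNeg.

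A gene was tested where it had at least 1 FPKM in at least 2 of the 6 libraries. Of the 9 genes, 7 met this, and KRT8 and KRT19 did not. KRT15 met it only through the libraries of the 2 siRNAs against the fusion partners, as did KRT14, so these had to differ from siNeg. With siEWSR1, KRT18, KRT15, KRT14 and NES lay past the threshold of the fit (limma, adjusted p under 0.05) as higher, where 33.2% of 13043 genes did. LMNB1 lay past it as lower, where 31% of genes did. With siFLI1 the same 4 genes lay past it as higher, beside 35.7% of all genes, and LMNB1 as lower, beside 29.6%. VIM and LMNA lay past it in neither comparison. Since these contrasts chose the genes, nothing is read from these counts, and both comparisons use the same siNeg libraries. With 2 libraries per group, a lack of overlap was common. Of the 13043 genes, 83.3% did not overlap between siEWSR1 and siNeg and 84.7% between siFLI1 and siNeg. Between siEWSR1 and siFLI1 the share was 52.9%, so a lack of overlap below describes the values only.

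**Figure D2:**
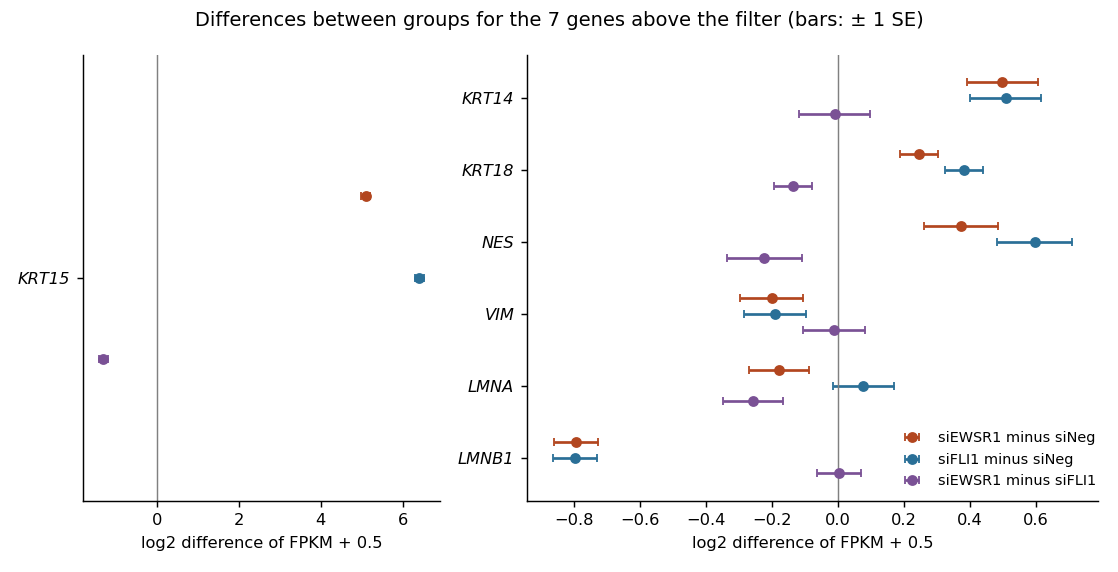
Differences of log2(FPKM + 0.5) between groups (x axes) for the 7 genes that met the filter, KRT15 on a wider axis at left. Points are fitted differences and bars 1 SE either side. KRT15 lay at 5.10 for siEWSR1 minus siNeg and 6.40 for siFLI1 minus siNeg, and LMNB1 at -0.79 and -0.80. KRT14 lay at 0.50 and 0.51, but at -0.011 and -0.066 with quantile normalization.

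KRT15 is a type I keratin of basal keratinocytes, known as a marker of hair follicle stem cells. It had 20.0 and 24.9 FPKM in the siEWSR1 libraries, 55.4 and 56.1 FPKM in the siFLI1 libraries, and 0.193 and 0.138 FPKM in the siNeg libraries. The 3 groups did not overlap, and the lowest siEWSR1 library stood above both siNeg libraries by a wide margin. Group means were 22.4 ± 3.49 FPKM with siEWSR1, 55.7 ± 0.465 with siFLI1 and 0.166 ± 0.039 with siNeg (SD, n = 2 each). The log2 difference, on the log2(FPKM + 0.5) scale that understates changes of low genes, was 5.10 ± 0.11 (SE) for siEWSR1 minus siNeg and 6.40 ± 0.11 for siFLI1 minus siNeg. These equal 34.3-fold and 84.5-fold, whereas the plain ratios of mean FPKM were 135 and 336. Among 13043 genes tested, the KRT15 difference ranked 14th from the highest with siEWSR1 and 5th with siFLI1. With a pseudocount of 0.1 in place of 0.5 the log2 differences were 6.41 and 7.72, and with a pseudocount of 1 they were 4.32 and 5.61.

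KRT15 also separated the siRNAs against EWSR1 and FLI1. Its mean was 0.402 times as high with siEWSR1 as with siFLI1, a log2 difference of -1.30 ± 0.11 (SE), and this ranked 20th from the lowest among 13043 genes. It was the only one of the 7 genes past the threshold in that direct comparison, as lower with siEWSR1, where 3.07% of genes lay past it as lower and 0.79% as higher. The siEWSR1 and siFLI1 values were also known when the genes were chosen, so nothing is read from this call. With no filter on low values, or without either siFLI1 library, KRT15 no longer lay past that threshold. The difference without single libraries ranged over -1.46 to -1.15.

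The KRT15 gene lies on chromosome 17 at 39669997 to 39675270 (hg19, as are all gene positions here), in the cluster of type I keratin genes, and MIR6510 is listed within it. Its neighbours were read in order along the chromosome. KRT13, a keratin of stratified mucosal epithelium at 39657233 to 39661865, had 0.585 and 0.697 FPKM in the siEWSR1 libraries, 1.14 and 1.70 FPKM in the siFLI1 libraries, and 0.0172 and 0 FPKM in the siNeg libraries. KRT13, no member of the chosen 9, rose with both siRNAs, with log2 differences of 1.16 ± 0.17 with siEWSR1 (SE, adjusted p = 0.00118) and 1.90 ± 0.17 with siFLI1 (adjusted p = 0.000134, limma). It met the filter only through the siFLI1 libraries, and without either of them it was not tested. With quantile normalization its siEWSR1 call was lost (log2 0.495, adjusted p = 0.168). On the other side of KRT15, KRT19 (39679869 to 39684641) stayed near 0 and LINC00974 was listed at 0 in all libraries. KRT9 had 0.188 and 0.379 FPKM with siEWSR1, 0.432 and 0.375 with siFLI1, and 0 and 0.0263 with siNeg. KRT35 and KRT36, beyond KRT13, were listed at 0 in both siNeg libraries. In each siEWSR1 and siFLI1 library they were above 0, at 0.241 FPKM or less. These genes were below the filter and were not tested. Neighbouring genes of the cluster thus stood at levels from 0 to 56.1 FPKM.

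KRT19, the smallest keratin and a common marker of simple and glandular epithelium, was listed at 0 in 1 siEWSR1 library and at 0.0857 FPKM in the other. It had 0.0579 and 0.176 FPKM in the siFLI1 libraries and was listed at 0 in both siNeg libraries. The siFLI1 libraries stood above the siNeg libraries and the siEWSR1 libraries overlapped with them. In 1 of the 3 libraries with a value above 0 the deposited lower confidence bound was itself above 0, at 0.0515 FPKM, so KRT19 was at the edge of what these libraries can show and no fold is given.

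KRT14, a type I keratin of the basal epidermal layer at 39738531 to 39743147 on chromosome 17, had 1.06 and 1.12 FPKM in the siEWSR1 libraries, 1.12 and 1.09 FPKM in the siFLI1 libraries, and 0.688 and 0.567 FPKM in the siNeg libraries. The siEWSR1 and siFLI1 groups both stood above siNeg and overlapped with each other. The log2 difference from siNeg was 0.50 ± 0.11 with siEWSR1 and 0.51 ± 0.11 with siFLI1 (SE), but with quantile normalization it was -0.011 and -0.066, so its direction depends on the scaling. KRT14 is also hard to tell from its relatives. Of all 50-base windows of its longest coding transcript in GENCODE release 29, 23.8% also occurred in a transcript of another gene, most often KRT16 (11.2%).

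KRT17, a keratin of basal and injured epithelium from the same stretch of chromosome 17, was far more abundant than KRT14. It had 38.7 and 32.7 FPKM in the siEWSR1 libraries, 42.1 and 43.2 FPKM in the siFLI1 libraries, and 21.6 and 22.3 FPKM in the siNeg libraries. KRT17 rose by 0.68 ± 0.08 on the log2 scale with siEWSR1 (SE, adjusted p = 0.000576) and by 0.94 ± 0.08 with siFLI1 (adjusted p = 0.000135). KRT14 was a small fraction of it. The KRT14/KRT17 ratio was 0.0275 and 0.0342 with siEWSR1, 0.0266 and 0.0251 with siFLI1, and 0.0318 and 0.0254 with siNeg, which overlapped with both other groups. The KRT16/KRT17 ratio was similar in kind, at 0.0159 to 0.0202 with siEWSR1, 0.0156 to 0.0194 with siFLI1 and 0.0152 to 0.0165 with siNeg. Whether reads of KRT17 or of KRT16 pseudogenes were counted as KRT14 was not tested. The difference of KRT14 itself is therefore given as uncertain.

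KRT18 and KRT8 form the filament pair of simple epithelia and are adjacent on chromosome 12. KRT18 (53342655 to 53346685) had 25.6 and 23.7 FPKM in the siEWSR1 libraries, 27.3 and 26.8 FPKM in the siFLI1 libraries, and 20.7 and 20.6 FPKM in the siNeg libraries. The siEWSR1 and siFLI1 groups both lay above siNeg without overlap, by 0.25 ± 0.06 on the log2 scale with siEWSR1 and 0.38 ± 0.06 with siFLI1 (SE). KRT18 was thus the highest keratin member in the siNeg group and differed least of those that lay above it.

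KRT8 (53290971 to 53343650) had 0.891 and 0.789 FPKM in the siEWSR1 libraries, 0.939 and 0.771 FPKM in the siFLI1 libraries, and 1.09 and 0.913 FPKM in the siNeg libraries. The siEWSR1 libraries lay below both siNeg libraries and the siFLI1 libraries overlapped with them. Each deposited confidence interval of KRT8 reached 23.4% to 30.4% either side of its value, wider than the gaps between the groups. KRT18 thereby exceeded KRT8, its type II partner, by a ratio of 28.7 and 29.997 in the siEWSR1 libraries, 29.04 and 34.8 in the siFLI1 libraries, and 19.0 and 22.6 in the siNeg libraries. The deposited loci of KRT8 and KRT18 overlap, and 43.4% of the 50-base windows of KRT18 also occurred in transcripts of other genes, with KRT8 (19.8%) and KRT18 pseudogenes among them. The sources used here do not say how such reads were divided, so the KRT18/KRT8 ratio is uncertain. For KRT15 the shared portion was 0.328%, all of it with KRT13.

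Across the whole family, 55 keratin genes were listed, 29 of type I and 26 of type II. Only 6 had a group mean of 1 FPKM or more (KRT10, KRT13, KRT14, KRT15, KRT17 and KRT18), all of type I, and 14 were listed at 0 in all 6 libraries. KRT8 came closest among type II genes, at 0.9999 FPKM in the siNeg group. KRT5, the usual partner of KRT14 and KRT15, stood at 0.149 and 0.0843 FPKM in the siEWSR1 libraries, 0.161 and 0.146 FPKM in the siFLI1 libraries, and 0.0971 and 0.170 FPKM in the siNeg libraries. KRT7, a type II keratin of ducts and glands, averaged 0.193 FPKM with siEWSR1, 0.293 with siFLI1 and 0.0568 with siNeg. Summed type I keratins reached 93.3 and 90.1 FPKM with siEWSR1, 135 and 137 with siFLI1, and 48.5 and 49.3 with siNeg. Summed type II keratins reached 1.83 and 1.96 FPKM with siEWSR1, 2.79 and 2.14 with siFLI1, and 1.39 and 1.25 with siNeg. Type I transcripts thus exceeded type II transcripts 35.0-fold to 64.0-fold in every library. KRT15 made up 21.0% and 27.1% of the summed keratin FPKM with siEWSR1, 40.3% and 40.2% with siFLI1, and 0.388% and 0.273% with siNeg.

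Of the 50 keratins outside the chosen 9, 3 were tested. KRT17 and KRT13 rose with siEWSR1, and KRT17, KRT13 and KRT10 rose with siFLI1, and the median log2 difference of the 3 was 0.68 and 0.94. Over all genes tested, 33.2% were higher with siEWSR1 and 35.7% with siFLI1, and the median was 0.0071 and 0.041. KRT13 met the filter only through the siFLI1 libraries and was not tested without either of them, and its siEWSR1 call was lost with quantile normalization. KRT10, a keratin of differentiated epidermis, averaged 4.62 ± 0.335 FPKM with siEWSR1, 5.28 ± 0.624 with siFLI1 and 4.04 ± 0.334 with siNeg (SD, n = 2 each). Its log2 difference was 0.17 ± 0.10 with siEWSR1 (adjusted p = 0.187) and 0.35 ± 0.10 with siFLI1 (adjusted p = 0.0246). The KRT10 call was lost without siFLI1 replicate 2 or siNeg replicate 1 (adjusted p = 0.132 and 0.129), with no filter (0.107) and with quantile normalization (0.107).

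Vimentin (chromosome 10, 17270258 to 17279592) had 645 and 529 FPKM in the siEWSR1 libraries, 596 and 581 FPKM in the siFLI1 libraries, and 659 and 684 FPKM in the siNeg libraries. Every siEWSR1 and siFLI1 library lay below both siNeg libraries, and siEWSR1 replicate 1 came closest to them. The log2 difference was -0.20 ± 0.09 with siEWSR1 and -0.19 ± 0.09 with siFLI1 (SE). Leaving out 1 siEWSR1 library moved the siEWSR1 value to -0.34 (without replicate 1) or -0.058 (without replicate 2). VIM-AS1 overlaps VIM on the opposite strand and held 28.4% of its 50-base windows, and with no strand setting stated their reads cannot be told apart.

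Nestin (chromosome 1, 156638556 to 156647189) had 2.95 and 2.45 FPKM in the siEWSR1 libraries, 3.21 and 3.24 FPKM in the siFLI1 libraries, and 1.79 and 2.16 FPKM in the siNeg libraries. The siEWSR1 and siFLI1 groups both lay above siNeg without overlap, and the siFLI1 libraries lay above the siEWSR1 libraries. The log2 difference was 0.37 ± 0.11 with siEWSR1 and 0.60 ± 0.11 with siFLI1 (SE). Without siEWSR1 replicate 1 or siNeg replicate 1, with no filter and with quantile normalization (0.15), NES did not lie past the threshold with siEWSR1. It shared none of its 50-base windows with another gene. The VIM/NES ratio was 219 and 216 with siEWSR1, 186 and 179 with siFLI1, and 369 and 317 with siNeg, so the siEWSR1 and siFLI1 libraries held relatively more NES transcript.

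The summed FPKM of the 68 cytoplasmic intermediate filament genes was 768 and 648 in the siEWSR1 libraries, 762 and 751 in the siFLI1 libraries, and 721 and 745 in the siNeg libraries. The siEWSR1 libraries spanned both other groups, and the siFLI1 libraries lay just above the siNeg libraries. Its make-up differed more than its sum. VIM held 84.0% and 81.6% of it with siEWSR1, 78.3% and 77.4% with siFLI1, and 91.4% and 91.8% with siNeg. Keratins held 12.4% and 14.2% with siEWSR1, 18.1% and 18.6% with siFLI1, and 6.92% and 6.78% with siNeg. These are shares of FPKM, and no measure of protein was available.

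**Figure D3:**
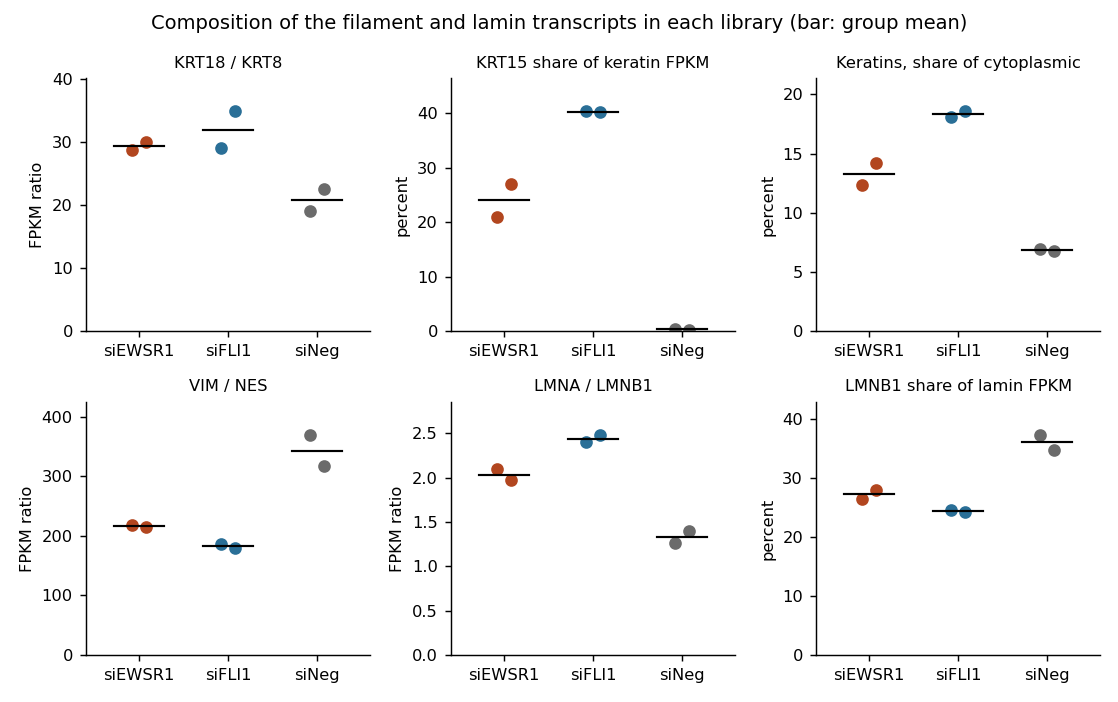
Ratios and percentages of FPKM (y axes, each starting at 0) in the siEWSR1, siFLI1 and siNeg libraries (x axis). Points are libraries and bars are group means. Keratins made up 12.4% to 18.6% of the cytoplasmic filament FPKM with the siRNAs against EWSR1 or FLI1 and 6.78% to 6.92% with siNeg, and the LMNA/LMNB1 ratio was 1.97 to 2.48 with those siRNAs and 1.26 to 1.39 with siNeg.

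Among 11 other cytoplasmic filament genes, 6 were tested. With siEWSR1, 4 rose and 1 fell (BFSP1, a lens filament gene), and with siFLI1, 3 rose. Over all genes, 33.2% rose and 31% fell with siEWSR1, and 35.7% rose with siFLI1. The median log2 difference of the 6 was 0.96 with siEWSR1 and 0.99 with siFLI1. The BFSP1 call was lost with no filter (adjusted p = 0.127) and without siEWSR1 replicate 2 (0.125), siNeg replicate 1 (0.146) or siNeg replicate 2 (0.0709). DES, which encodes the muscle filament protein desmin, had 8.27 and 7.87 FPKM in the siEWSR1 libraries, 8.70 and 9.61 FPKM in the siFLI1 libraries, and 0.527 and 0.524 FPKM in the siNeg libraries. Its log2 difference was 3.06 ± 0.08 with siEWSR1 (SE, adjusted p = 2.58e-06) and 3.23 ± 0.08 with siFLI1 (adjusted p = 1.49e-06). DES met the filter only through the siEWSR1 and siFLI1 libraries, so it had to differ from siNeg. SYNM, which encodes the desmin- and vimentin-binding synemin, rose by 1.03 ± 0.08 (adjusted p = 0.000104) and 1.05 ± 0.08 (8.33e-05). SYNC, the gene for syncoilin of muscle, rose by 1.81 ± 0.28 with siEWSR1 (adjusted p = 0.00167) and 1.99 ± 0.28 with siFLI1 (0.00105). SYNC had 0.125 and 0.104 FPKM in the siNeg libraries and also met the filter only through the siEWSR1 and siFLI1 libraries. PRPH, the peripheral neuron filament gene, averaged 3.51 FPKM with siEWSR1 and 2.39 with siNeg (0.48 ± 0.15, adjusted p = 0.026). The PRPH call was lost without siEWSR1 replicate 1 or siNeg replicate 1 (adjusted p = 0.0971 and 0.112), with no filter (0.137) and with quantile normalization (0.117). GFAP, the astrocyte filament gene, was at most 0.055 FPKM in each library.

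LMNB1 encodes lamin B1, a lamin that stays farnesylated and membrane-bound. Its gene (chromosome 5, 126112315 to 126172712) had 67.3 and 60.0 FPKM in the siEWSR1 libraries, 62.6 and 64.0 FPKM in the siFLI1 libraries, and 112 and 109 FPKM in the siNeg libraries. The siEWSR1 and siFLI1 libraries overlapped with each other and lay far below siNeg. Means were 63.6 ± 5.19 FPKM with siEWSR1, 63.3 ± 0.962 with siFLI1 and 110.4 ± 2.63 with siNeg (SD, n = 2 each). LMNB1 was 1.73-fold lower with siEWSR1 (log2 -0.79 ± 0.07, SE) and 1.74-fold lower with siFLI1 (-0.80 ± 0.07). Under the 18 alternative settings the siEWSR1 value ranged over -0.88 to -0.59 and the siFLI1 value over -0.82 to -0.67. The difference ranked 1007th from the lowest of 13043 genes with siEWSR1 and 986th with siFLI1.

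LMNA encodes the A-type lamins A and C, which are abundant in stiff and differentiated tissue. The gene (chromosome 1, 156052337 to 156109880) had 141.0 and 118 FPKM in the siEWSR1 libraries, 150.03 and 159 FPKM in the siFLI1 libraries, and 141.3 and 151 FPKM in the siNeg libraries. The siFLI1 libraries overlapped with siNeg, and siEWSR1 replicate 1 lay just under siNeg replicate 1. The log2 difference was -0.18 ± 0.09 with siEWSR1, 0.077 ± 0.091 with siFLI1 and -0.26 ± 0.09 for siEWSR1 minus siFLI1 (SE). With quantile normalization the siEWSR1 value was 0.049 and the siFLI1 value 0.24, past the threshold as higher, and without siEWSR1 replicate 1 it was -0.31, so no direction is given for LMNA.

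The lamins differed in proportion. The LMNA/LMNB1 ratio was 2.10 and 1.97 in the siEWSR1 libraries, 2.39 and 2.48 in the siFLI1 libraries, and 1.26 and 1.39 in the siNeg libraries, with no overlap of siEWSR1 or siFLI1 with siNeg. LMNB1 made up 26.5% and 28.0% of the summed lamin FPKM with siEWSR1, 24.6% and 24.2% with siFLI1, and 37.3% and 34.8% with siNeg. LMNB2, the gene for the other B-type lamin, had 45.6 and 35.9 FPKM in the siEWSR1 libraries, 42.0 and 42.3 FPKM in the siFLI1 libraries, and 47.6 and 52.2 FPKM in the siNeg libraries. Its log2 difference was -0.30 ± 0.11 with siEWSR1 (SE, adjusted p = 0.0547) and -0.24 ± 0.11 with siFLI1 (adjusted p = 0.103). Without siEWSR1 replicate 1 LMNB2 was called as lower with siEWSR1, at -0.47 (adjusted p = 0.00187), and without either siEWSR1 library it was called with siFLI1 (adjusted p = 0.0117 and 0.0122).

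Among 22 lamina and envelope partners, 21 were tested, all with at least 1 FPKM in each library. With siEWSR1, 7 fell and 3 rose, and with siFLI1, 7 fell and 4 rose. Over all genes, 31% fell and 33.2% rose with siEWSR1, and 29.6% fell and 35.7% rose with siFLI1. The 3 that rose with siEWSR1 (ZMPSTE24, ICMT and TOR1AIP1) became 0 with no filter or without siNeg replicate 2, and 1 without siEWSR1 replicate 2 or siNeg replicate 1. The 4 that rose with siFLI1 became 2 without siNeg replicate 2 and 7 with quantile normalization. The median log2 difference of the list was -0.034 with siEWSR1 and -0.040 with siFLI1, beside 0.0071 and 0.041 over all genes tested. TMPO, which encodes the lamin-binding LAP2 proteins, had 55.5 and 54.8 FPKM in the siEWSR1 libraries, 47.4 and 53.1 FPKM in the siFLI1 libraries, and 82.1 and 80.5 FPKM in the siNeg libraries. It fell by 0.56 ± 0.07 on the log2 scale with siEWSR1 (adjusted p = 0.000492) and by 0.69 ± 0.07 with siFLI1 (0.000176). LBR, the lamin B receptor, fell by 0.35 ± 0.08 with siEWSR1 (adjusted p = 0.0096) and by 0.50 ± 0.08 with siFLI1 (0.0021), and its siEWSR1 call was lost without siNeg replicate 1 (0.0518), with no filter (0.0654) and with quantile normalization (0.0985). SUN2, a protein of the inner membrane that links the lamina to the cytoskeleton, fell by 0.61 ± 0.07 with either siRNA (adjusted p = 0.000541 with siEWSR1 and 0.000478 with siFLI1). The nesprin gene SYNE3 fell by 0.84 ± 0.12 with siEWSR1 (adjusted p = 0.00125) and by 0.78 ± 0.12 with siFLI1 (0.00163), and SYNE2 fell with both siRNAs, as did the envelope and chromatin-tethering genes NRM and BANF1. The siFLI1 call of SYNE2 was lost with no filter and without siFLI1 replicate 2 or siNeg replicate 2 (adjusted p = 0.0924 to 0.0949).

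Of the enzymes that mature prelamin A, ZMPSTE24, the protease that cuts it, averaged 15.3 FPKM with siEWSR1, 15.6 with siFLI1 and 10.9 with siNeg. It rose by 0.47 ± 0.13 on the log2 scale with siEWSR1 (adjusted p = 0.0197) and by 0.49 ± 0.13 with siFLI1 (0.0164). Both ZMPSTE24 calls were lost without siNeg replicate 2 (adjusted p = 0.0986 and 0.0856), without replicate 2 of the siRNA compared (0.0774 and 0.0872) and with no filter (0.125 and 0.1099). ICMT, the methyltransferase that acts on farnesylated lamins, rose by 0.25 ± 0.07 (adjusted p = 0.0207) and 0.32 ± 0.07 (0.00707), whereas RCE1, FNTA and FNTB passed the test with neither siRNA. The siEWSR1 call of ICMT was lost with no filter and without siEWSR1 replicate 1 or either siNeg library (adjusted p = 0.0689 to 0.0881). EMD, the gene for emerin, had log2 differences of 0.0059 with siEWSR1 (adjusted p = 0.938) and 0.12 with siFLI1 (0.128).

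Upstream sequence is shown for LMNB1, which was lower with both siRNAs, for NES, which was higher, and for VIM, the most abundant member, because ETS factors such as FLI1 recognise a GGAA core. Each stretch is the 250 bases before the gene's start in RefSeq (build GRCh38.p14, a build other than that of the expression files), 5′ to 3′ on the gene's strand. Capitals mark GGAA and its complement TTCC. LMNB1 is taken from chr5:126776373-126776622 on the plus strand, NES from chr1:156677408-156677657 on the minus strand and VIM from chr10:17227991-17228240 on the plus strand.
LMNB1: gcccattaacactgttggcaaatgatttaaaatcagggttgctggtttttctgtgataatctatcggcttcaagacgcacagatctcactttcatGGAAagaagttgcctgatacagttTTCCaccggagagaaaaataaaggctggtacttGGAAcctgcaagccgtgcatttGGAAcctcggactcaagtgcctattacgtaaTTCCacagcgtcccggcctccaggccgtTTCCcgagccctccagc
NES: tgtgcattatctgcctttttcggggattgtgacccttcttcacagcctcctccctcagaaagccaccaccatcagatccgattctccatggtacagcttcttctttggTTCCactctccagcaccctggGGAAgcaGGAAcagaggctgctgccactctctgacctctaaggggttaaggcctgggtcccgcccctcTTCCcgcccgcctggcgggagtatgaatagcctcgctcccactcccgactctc
VIM: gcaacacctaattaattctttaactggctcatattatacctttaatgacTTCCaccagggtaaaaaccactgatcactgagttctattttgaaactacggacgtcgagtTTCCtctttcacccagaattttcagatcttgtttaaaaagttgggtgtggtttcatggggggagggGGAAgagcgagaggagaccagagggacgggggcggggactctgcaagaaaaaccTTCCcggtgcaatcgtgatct
The LMNB1 stretch held 6 matches over both strands, and 9.14% of 35116 promoter stretches of that length held at least as many, with a median of 3. NES and VIM held 4 each, and 34.3% of stretches held at least as many. The tandem GGAAGGAA was in none of the 3, and 3.06% of all stretches held it. The AP-1 letters TGANTCA (6.57% of stretches) and the TATA letters TATAAA (10.7%) were also in none of them. The GC-box letters GGGCGG occurred 2 times in NES and 1 time in VIM, and 42.6% of stretches held them. RefSeq stretches for KRT8 and LMNA held 2 GGAA matches each, and KRT18, KRT19, KRT15 and KRT14 were not matched. A match of letters does not show that a factor binds there.

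The linkers of filaments to junctions were compared in a list of 20 plakin and desmosome genes, of which 9 were tested. With siEWSR1, 5 rose and 4 fell, and with siFLI1, 5 rose and 3 fell. Over all genes, 33.2% rose and 31% fell with siEWSR1, and 35.7% rose and 29.6% fell with siFLI1. The median log2 difference of the 9 was 0.90 and 1.03. The 4 that fell with siEWSR1 (MACF1, PKP4, PERP and TCHP) became 2 without either siNeg library, and the 5 that rose with either siRNA became 3 without siFLI1 replicate 2, where PPL and EPPK1 were not tested. With quantile normalization the 5 that rose with siEWSR1 became 3. JUP, the gene for the junction protein plakoglobin, had 14.4 and 15.1 FPKM in the siEWSR1 libraries, 14.1 and 14.5 FPKM in the siFLI1 libraries, and 5.02 and 5.69 FPKM in the siNeg libraries. It rose by 1.39 ± 0.07 on the log2 scale with siEWSR1 (SE, adjusted p = 2.39e-05) and by 1.34 ± 0.07 with siFLI1 (2.11e-05). PLEC, the gene for plectin, which cross-links filaments, rose by 0.91 ± 0.12 with siEWSR1 (adjusted p = 0.000703) and 1.03 ± 0.12 with siFLI1 (0.000376). DST, the gene for the hemidesmosomal plakin dystonin, rose by 0.90 ± 0.06 (adjusted p = 6.59e-05) and 1.08 ± 0.06 (2.71e-05). PKP4, a plakophilin gene, fell by 0.47 ± 0.06 with siEWSR1 (adjusted p = 0.000717) and 0.45 ± 0.06 with siFLI1 (0.00084). Periplakin (PPL) averaged 0.804 FPKM with siEWSR1, 1.69 with siFLI1 and 0.129 with siNeg, and the remaining 11 genes of the list, desmoplakin (DSP), DSG1 to DSG3 and DSC1 to DSC3 among them, were below the filter.

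Of 8 basal epithelial and hemidesmosome genes, 4 were tested, and 2 rose and 2 fell with either siRNA. Over all genes, 33.2% rose and 31% fell with siEWSR1, and 35.7% rose and 29.6% fell with siFLI1. The median log2 difference of the 4 was -0.027 with siEWSR1 and 0.18 with siFLI1. Of the 2 that fell with siFLI1, ITGA6, the integrin α6 gene, lost its call with the replicate block (adjusted p = 0.0615), with no filter (0.0988) and without any one of the siFLI1 or siNeg libraries (0.0653 to 0.172). CD151, a tetraspanin of hemidesmosomes, rose by 0.46 ± 0.05 on the log2 scale with siEWSR1 (SE, adjusted p = 0.000385) and 0.64 ± 0.05 with siFLI1 (9.11e-05). ITGB4, the integrin β4 gene, rose by 0.75 ± 0.11 with siEWSR1 (adjusted p = 0.00143) and 1.09 ± 0.11 with siFLI1 (0.000257). ITGB4 met the filter only through the siFLI1 libraries and was not tested without either of them. With quantile normalization its log2 difference was -0.043 with siEWSR1 (adjusted p = 0.809) and 0.37 with siFLI1 (0.0615), so its direction with siEWSR1 depends on the scaling. LAMA3, a laminin chain gene, fell by 0.70 ± 0.11 with siEWSR1 (adjusted p = 0.00174) and 0.65 ± 0.11 with siFLI1 (0.00242). TP63, the regulator of basal epithelial identity, was at most 0.051 FPKM in each library. The 3 basal epithelial markers TP63, KRT5 and COL17A1 summed to 0.176 to 0.219 FPKM with siEWSR1, 0.224 to 0.282 with siFLI1 and 0.115 to 0.203 with siNeg. KRT15 was thus high in libraries in which these markers were near 0.

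Of 18 epithelial junction and identity genes, 5 were tested. With each siRNA 4 rose (CDH3, CLDN4, MUC1 and ELF3) and 1 fell (ESRP1), and only MUC1 had at least 1 FPKM in all 6 libraries. Over all genes, 33.2% rose and 31% fell with siEWSR1, and 35.7% rose and 29.6% fell with siFLI1. The median log2 difference of the 5 was 1.27 and 1.72. ESRP1 met the filter only through the siNeg libraries, so without either of these it was not tested and the number that fell became 0. ELF3 met it only through the siFLI1 libraries, and with quantile normalization its siEWSR1 call was lost (log2 0.039, adjusted p = 0.906). CDH3, the gene for P-cadherin of basal epithelium, had 7.003 and 7.78 FPKM in the siEWSR1 libraries, 12.4 and 13.9 FPKM in the siFLI1 libraries, and 0.963 and 1.19 FPKM in the siNeg libraries. It rose by 2.33 ± 0.10 with siEWSR1 (SE, adjusted p = 1.19e-05) and 3.12 ± 0.10 with siFLI1 (3.74e-06), and was lower with siEWSR1 than with siFLI1 (-0.79 ± 0.10, adjusted p = 0.0191). That direct call was lost without either siFLI1 library (adjusted p = 0.0971 and 0.165) and with no filter (0.11). ESRP1, an epithelial splicing regulator, had 0.0724 and 0.0735 FPKM in the siEWSR1 libraries, 0.0758 and 0.0737 FPKM in the siFLI1 libraries, and 2.41 and 1.24 FPKM in the siNeg libraries. The 10 epithelial markers examined, EPCAM and CDH1 among them, summed to 1.86 to 2.15 FPKM with siEWSR1, 2.79 to 2.84 with siFLI1 and 2.22 to 3.07 with siNeg. These sums hide opposite moves. ESRP1 was the largest part with siNeg, whereas CLDN4 was the largest part with siEWSR1 and siFLI1. CLDN4 averaged 1.40 FPKM with siEWSR1, 1.93 with siFLI1 and 0.236 with siNeg. The other markers of this set averaged below 1 FPKM in each group.

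Mesenchymal genes were compared as the counterpart of vimentin. Of 12 transition factors and mesenchymal genes, 11 were tested. With siEWSR1, 8 rose and 2 fell, and with siFLI1, 8 rose and 1 fell, and the median log2 difference was 0.57 and 0.73. Over all genes, 33.2% rose and 31% fell with siEWSR1, and 35.7% rose and 29.6% fell with siFLI1. The 2 that fell with siEWSR1 (ZEB2 and CDH2) became 1 with the replicate block and 0 with no filter. ZEB2 lost this call in 12 of the 18 alternative settings and CDH2 in 4. For ZEB2 these included quantile normalization, median-ratio scaling, no variance trend and the fit of 2 groups alone. Without single libraries the ZEB2 log2 difference was -0.21 to -0.12. The 1 that fell with siFLI1 (ZEB2) became 0 without siFLI1 replicate 1 or siNeg replicate 1, and 2 without either siEWSR1 library. PRRX1, a transcription factor of limb mesenchyme, had 11.9 and 14.3 FPKM in the siEWSR1 libraries, 10.9 and 13.2 FPKM in the siFLI1 libraries, and 0.460 and 0.540 FPKM in the siNeg libraries (log2 3.76 ± 0.12, adjusted p = 5.01e-06, with siEWSR1 and 3.65 ± 0.12, 4.24e-06, with siFLI1). PRRX1 met the filter only through the siEWSR1 and siFLI1 libraries, so it had to differ from siNeg. SNAI2, a repressor of epithelial genes, rose by 3.12 ± 0.15 with siEWSR1 (adjusted p = 1.74e-05) and 3.18 ± 0.15 with siFLI1 (1.32e-05). SNAI2 averaged 0.601 FPKM with siNeg, so it could not have met the filter through the siNeg libraries alone. CDH11, a mesenchymal cadherin, averaged 64.1 FPKM with siEWSR1, 67.7 with siFLI1 and 14.0 with siNeg. VIM, whose product marks the same cells, did not lie above siNeg in any siEWSR1 or siFLI1 library. The 3 fibroblast markers DCN, LUM and PDGFRA summed to 8.62 to 10.6 FPKM with siEWSR1, 9.51 to 12.2 with siFLI1 and 0.333 to 0.338 with siNeg, of which PDGFRA alone averaged 9.17, 9.79 and 0.323 FPKM. DCN and LUM stayed below 1 FPKM, and the part of such cells in the results was not tested.

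Neural progenitor genes were compared as the counterpart of nestin. Of 13 genes, 9 were tested, and 3 rose and 6 fell with siEWSR1, while 2 rose and 6 fell with siFLI1. The shares over all genes were 33.2% and 31% with siEWSR1 and 35.7% and 29.6% with siFLI1, and the median log2 difference of the list was -0.86 and -0.81. With siFLI1 the 2 that rose became 1 without siFLI1 replicate 2 or siNeg replicate 1. POU3F2, a neural transcription factor, had 17.7 and 14.1 FPKM in the siEWSR1 libraries, 15.6 and 14.5 FPKM in the siFLI1 libraries, and 53.1 and 56.8 FPKM in the siNeg libraries (log2 -1.76 ± 0.11, adjusted p = 3.82e-05, and -1.83 ± 0.11, 2.65e-05). SOX2, a stem cell factor, averaged 13.8 FPKM with siEWSR1, 12.4 with siFLI1 and 25.3 with siNeg, and SOX1, PAX6, MSI1 and FABP7 fell with both siRNAs too. The FABP7 calls were lost with no filter (adjusted p = 0.0521 with siEWSR1 and 0.1004 with siFLI1), and with siFLI1 also without siFLI1 replicate 2 or siNeg replicate 1 (0.0698 and 0.0621). The MSI1 calls were lost with no filter, without siNeg replicate 2 and without replicate 2 of the siRNA compared (0.0822 to 0.135). NOTCH1, a receptor of progenitor cells, rose by 1.13 ± 0.11 with siEWSR1 (adjusted p = 0.000234) and 1.499 ± 0.11 with siFLI1 (6.69e-05). NES, which marks the same progenitors, lay above siNeg in each siEWSR1 and siFLI1 library.

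**Figure D4:**
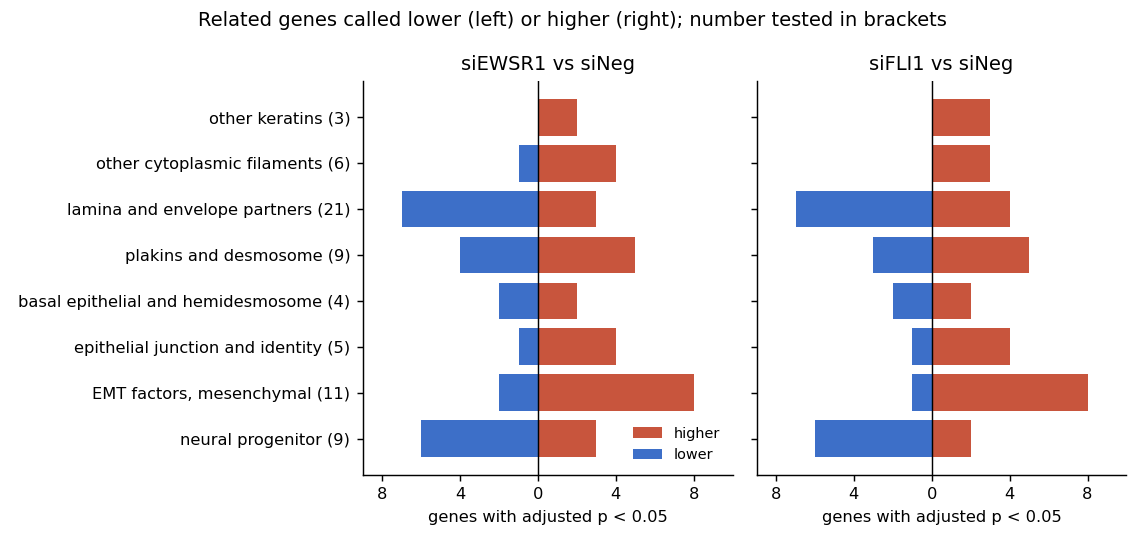
Number of genes called in each of 8 related lists (y axis, number tested in brackets) for siEWSR1 against siNeg and siFLI1 against siNeg, lower to the left of 0 and higher to the right (x axis, limma, adjusted p under 0.05). The lamina and envelope list had 7 lower and 3 higher genes with siEWSR1 and 7 and 4 with siFLI1, and the mesenchymal list had 8 higher genes with each.

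Over the 8 lists together, 68 of 154 genes were tested, and 31 rose and 23 fell with siEWSR1, while 31 rose and 20 fell with siFLI1. Over all 13043 genes tested, 33.2% rose and 31% fell with siEWSR1, and 35.7% rose and 29.6% fell with siFLI1. Of the listed genes, 20 that rose and 14 that fell with siEWSR1, and 21 and 13 with siFLI1, were tested and called in the same direction in all alternatives run other than the filter on a mean of at least 5 FPKM. Genes that met the filter only where they are high had to differ. That condition applied to KRT13, DES, SYNC, EPPK1, PPL, ITGB4, ESRP1, CLDN4, ELF3 and PRRX1. CDH3 and SNAI2, high with siEWSR1 and siFLI1, could not have met the filter through the siNeg libraries alone. The condition could apply to BFSP1, CDH2 and DCX. Among the other 53, with at least 1 FPKM in all 6 libraries, 19 rose and 20 fell with siEWSR1, and 20 rose and 19 fell with siFLI1.

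The likeness of other genes to each tested member was measured as Pearson's r of log2(FPKM + 0.5) over the 6 libraries, among genes with a group mean of at least 5 FPKM, and is a description. The 2 closest genes were LIMD2 and SIGIRR for KRT18 (r = 0.999 and 0.998), UBTD1 and LSP1 for KRT15, CERK and AKR1C3 for KRT14 (both 0.998), NDUFS3 and FSD1 for VIM (0.995 and 0.992), APH1A and BIN3 for NES (0.999 and 0.997), FPGS and OSR2 for LMNA (0.992 and 0.990), and SSX3 and WDR76 for LMNB1. Many genes share a pattern set by 3 groups: 1899 of 9375 candidates had r of at least 0.95 with LMNB1 and 1534 with KRT15, but only 62 with VIM and 32 with LMNA. LSP1, for example, averaged 4.42 FPKM with siEWSR1, 6.83 with siFLI1 and 0.390 with siNeg, the same order of groups as KRT15, and WDR76 averaged 8.87, 8.91 and 16.3 FPKM in those groups, the order of LMNB1 apart from a near tie of siEWSR1 and siFLI1.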

How the data were processed

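RNA of the TC32 cell line was profiled in 6 libraries, 2 each for siEWSR1, siFLI1 and siNeg. The authors deposited gene-level FPKM with confidence bounds, made with TopHat2 2.0.13, Cufflinks and Cuffdiff on hg19, per the submitters' processing notes. The sources used here do not state the library kit, strand, annotation or handling of multiply mapped reads. FPKM values are scaled to library size, so abundant RNAs can shift the rest, and without counts the depth in fragments is unknown. Summed FPKM ran from 502084 (siFLI1 replicate 1) to 678574 (siNeg replicate 2), and was 662259 and 566671 in the siEWSR1 libraries. The main fit applied no further scaling.

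Each file held 27442 rows for 26931 symbols. The 380 symbols on several rows were summed, and starts were converted to count from 1. Genes with at least 1 FPKM in at least 2 of 6 libraries (13043) entered limma 3.58.1 (R 4.3.3) as log2(FPKM + 0.5), in 1 fit over the 3 groups with a variance trend (3 residual and 3.39 prior degrees of freedom). P-values are two-sided, adjusted by Benjamini-Hochberg over all 13043 genes, and called under 0.05. The fit was run on simulated data in which few genes were changed, in 1 group only. That is a check of the code and does not cover these data, where most genes were called with either siRNA.

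The 9 genes and 8 related lists were chosen with earlier results of these data known, so no p-value, list test or list-wise adjustment is given for the 9. Adjusted p-values of other genes come from the fit over all genes. For genes of the lists they are no independent support, since the lists were chosen in the same way. From each list, up to 4 called genes per siRNA were to be named, those with the largest change, no overlap between groups and a mean of at least 1 FPKM in the higher group, with EWSR1, FLI1, KRT5, KRT7, KRT17, GFAP, DES, LMNB2 and TP63 named whatever their change. Other genes were named after their values were seen. Shared 50-base windows were counted on both strands in GENCODE release 29 transcripts.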

Additional observations from a re-analysis of the deposited data

How the results depend on the processing

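Alternatives were other pseudocounts, no filter, a mean of at least 5 FPKM, quantile or median-ratio scaling, no or a robust variance trend, a replicate block, the first row per symbol, 2 groups alone and each library left out. KRT14 reversed with quantile normalization, to -0.011 with siEWSR1 and -0.066 with siFLI1. With a mean of at least 5 FPKM fewer genes are tested, only 5 of the 9 among them. Then 2518 and 2787 genes were higher with siEWSR1 and siFLI1, 18 and 19 of the listed genes, and 2 of these 5 in each. Quantile normalization left 2 of the 7 tested members higher with siEWSR1, beside 3875 of all 13043 genes. With siFLI1, 2 of the 7 were lower in a fit of 2 groups alone (VIM joined LMNB1), beside 4006 of 13043 genes. Nothing is read from these counts of members. Leaving out single libraries gave 1 to 3 lower with siEWSR1, where VIM and LMNA joined without siEWSR1 replicate 1, and 1 to 2 with siFLI1.

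The direct comparison depended most on the processing. The 504 genes called became 202 with no filter, 825 with a robust trend, 319 with the replicate block, 111 in a fit of 2 groups alone and 4 to 728 without single libraries (4 without siFLI1 replicate 2, 23 without siFLI1 replicate 1). Of the 103 higher with siEWSR1 than with siFLI1, these settings gave 66, 185, 57, 12 and 3 to 107, quantile normalization 209 and median-ratio scaling 159. Of the 401 lower, they gave 136, 640, 262, 99 and 1 to 621. Among the 9, the 1 lower gene (KRT15) became 0 with no filter and 0 to 2 without single libraries (LMNA joined without siEWSR1 replicate 1). The causes were not tested.

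Replicate numbers share only a number: deviations of same-numbered libraries correlated at 0.0689 (siEWSR1 and siFLI1), -0.137 (siEWSR1 and siNeg) and -0.053 (siFLI1 and siNeg). The replicate block called 8190 genes with siEWSR1 and 8307 with siFLI1, against 8372 and 8517 without it. With the siNeg numbers crossed, chosen after seeing the data, it called 8838, 8953 and, in the direct comparison, 676. Of 67 results for other genes named by the rule, 56 kept direction and side of the threshold in all alternatives in which they were tested, and none of the 67 reversed. Settings in which a gene fell below the filter were not counted. ITGB4 with siEWSR1 was not among the 67 and reversed with quantile normalization (-0.043).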
